A study of Homo sapiens with 24 samples.

Results

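The 43 genes described here encode the chaperones of the cytosol: the HSP70, HSP110, HSP90 and small HSP proteins, the co-chaperones that work with them, the CCT complex, prefoldin, and the heat shock factors HSF1 and HSF2. They were chosen by gene symbol, out of 19158 genes in the deposited expression table, and all 43 were found. A single symbol, HSPA14, stood on 2 rows, so 44 rows carried a member's symbol. HSPA14 was read from the row whose identifier (ENSG00000187522) still has that name.

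The RNA came from ARP1, a human multiple myeloma cell line, that is, a culture of malignant plasma cells. One group was cultured for 24 h with LPA. The labels do not spell out LPA, which is read here as lysophosphatidic acid, a signalling lipid with its own cell-surface receptors, and the unit of the labelled dose, 4 mg/mL, is doubtful. The other group received PBS, the vehicle, for the same time. Each group had 3 libraries of total RNA, called LPA 1 to 3 and PBS 1 to 3, and each library was read in 4 lanes that were averaged and counted once. Both groups are 1 cell line in culture, without other cells, and no label says whether each library had a culture of its own. The p-values therefore reflect the spread between these libraries, part of which may be technical.

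Chaperones bind proteins that are not yet folded or have lost their fold. HSP70 proteins bind short stretches of a client, J-domain proteins bring clients to them and start their ATP hydrolysis, and HSP110 and BAG proteins exchange their nucleotide so that the client is let go. HSP90 takes over partly folded clients such as kinases and steroid receptors with the help of co-chaperones, and the ring-shaped CCT complex folds actin and tubulin that prefoldin delivers. Some of these genes are on at all times, while others are switched on by the heat shock factor HSF1, which binds repeats of GAA and its reverse complement, the heat shock element, when unfolded protein builds up. Plasma cells make large amounts of antibody and depend on such protein folding and disposal, which is why myeloma cells are sensitive to drugs that block the proteasome.

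Libraries held between 6941747 and 8740992 reads with LPA, against 5498910 to 5615625 with PBS. The unit is FPM, the read count scaled to a fixed total per lane (CPM), and 1 read was worth 0.114 to 0.182 FPM. LPA over PBS, the median gene had a log2 fold change of 0.13, so counts of calls and the calls of single chaperones are also given on rescaled FPM, that is, FPM divided by median-of-ratios size factors, where the median gene had 0.00. Chi-square divided by its degrees of freedom was 1.37 between LPA 1 and LPA 2 and 1.36 between PBS 1 and PBS 3, little more than the 1.12 to 1.23 between lanes of the same library. LPA 3 differed from the other LPA libraries with 2.51 and 2.98, and PBS 2 from the other PBS libraries with 3.97 and 4.05. Nuclear protein-coding genes took 63.9% to 67.8% of the reads with LPA, against 57.1% to 60.9% with PBS. The 9 plasma cell markers summed to 2523 to 2680 FPM with LPA, against 1564 to 1720 FPM with PBS. Of these 9, 7 were called higher with LPA and 2 had negative log2 fold changes, the lowest -0.27. In these bulk samples fewer cells with a transcript and less of it per cell cannot be told apart. Markers of other cells were low: those of T and NK cells summed to 25.4 to 28.9 FPM with LPA and 20.4 to 26.2 FPM with PBS, those of monocytes to 2.59 to 6.57 and 2.72 to 4.28 FPM, and those of epithelial and stromal cells to 27.5 to 29.7 and 27.9 to 35.6 FPM. Not all markers were listed: 4 of 6 of T and NK cells, 2 of 4 of monocytes and 4 of 6 of epithelial and stromal cells were. CD3D, CD2, LYZ, FCGR3A and EPCAM were among those not listed. Of the 4 tested epithelial and stromal markers 1 was called lower with LPA, and their lowest log2 fold change was -0.47. What part the shares of the RNA classes, the depth or these markers had in the results below was not tested.

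With LPA, most of the chaperones that are always on rose on deposited FPM, 16 of 25, against 10 on rescaled FPM. HSPA8, HSP90AB1 and all 7 CCT subunits of the set were among those that rose on deposited FPM. Of the 7 tested genes that heat shock switches on, HSPA1B and HSPB1 fell, while HSP90AA1 and HSPH1 rose on deposited FPM. Of the 43 genes, 42 were high enough to be tested, with at least 1 FPM in at least 3 libraries. By limma on log2(FPM + 1), adjusted over all 16274 genes tested, 25 of them rose and 2 fell at an adjusted p below 0.05, and 15 did not pass. Over all genes tested the same rule called 22.5% higher and 4.49% lower. The median log2 fold change of LPA over PBS was 0.25 over the chaperones, against 0.13 over all genes. On rescaled FPM 15 chaperones rose and 7 fell, with a median of 0.11, where 9.67% of all genes were called higher and 9.45% lower. The 5 genes that fell only there were BAG3, DNAJB1, DNAJB4, PFDN2 and PFDN5. The 10 that rose only on deposited FPM were HSPA14, HSPA4, HSPH1, STIP1, FKBP4, BAG6, DNAJA1, DNAJC8, CCT8 and PFDN1. The other 17 calls held in the same direction on both scales. All LPA libraries lay above all PBS libraries for 28 chaperones and below for 6, where 31.4% and 7.42% of all genes did so. Of the 27 calls, 19 held whichever library was left out. The count of lower genes was 1 without LPA 1, without LPA 3 or without PBS 3, because HSPB1 then missed the threshold. With LPA 1 and 2 averaged as 1 sample and PBS 1 and 3 as another, 19 chaperones rose and 1 fell, where 15.0% and 3.31% of all genes were called. On the recovered reads, edgeR called 15 chaperones higher and 7 lower, beside 10.3% and 9.64% of all genes, and DESeq2 called 12 higher and 4 lower, beside 4.92% and 5.79%.

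**Figure D1:**
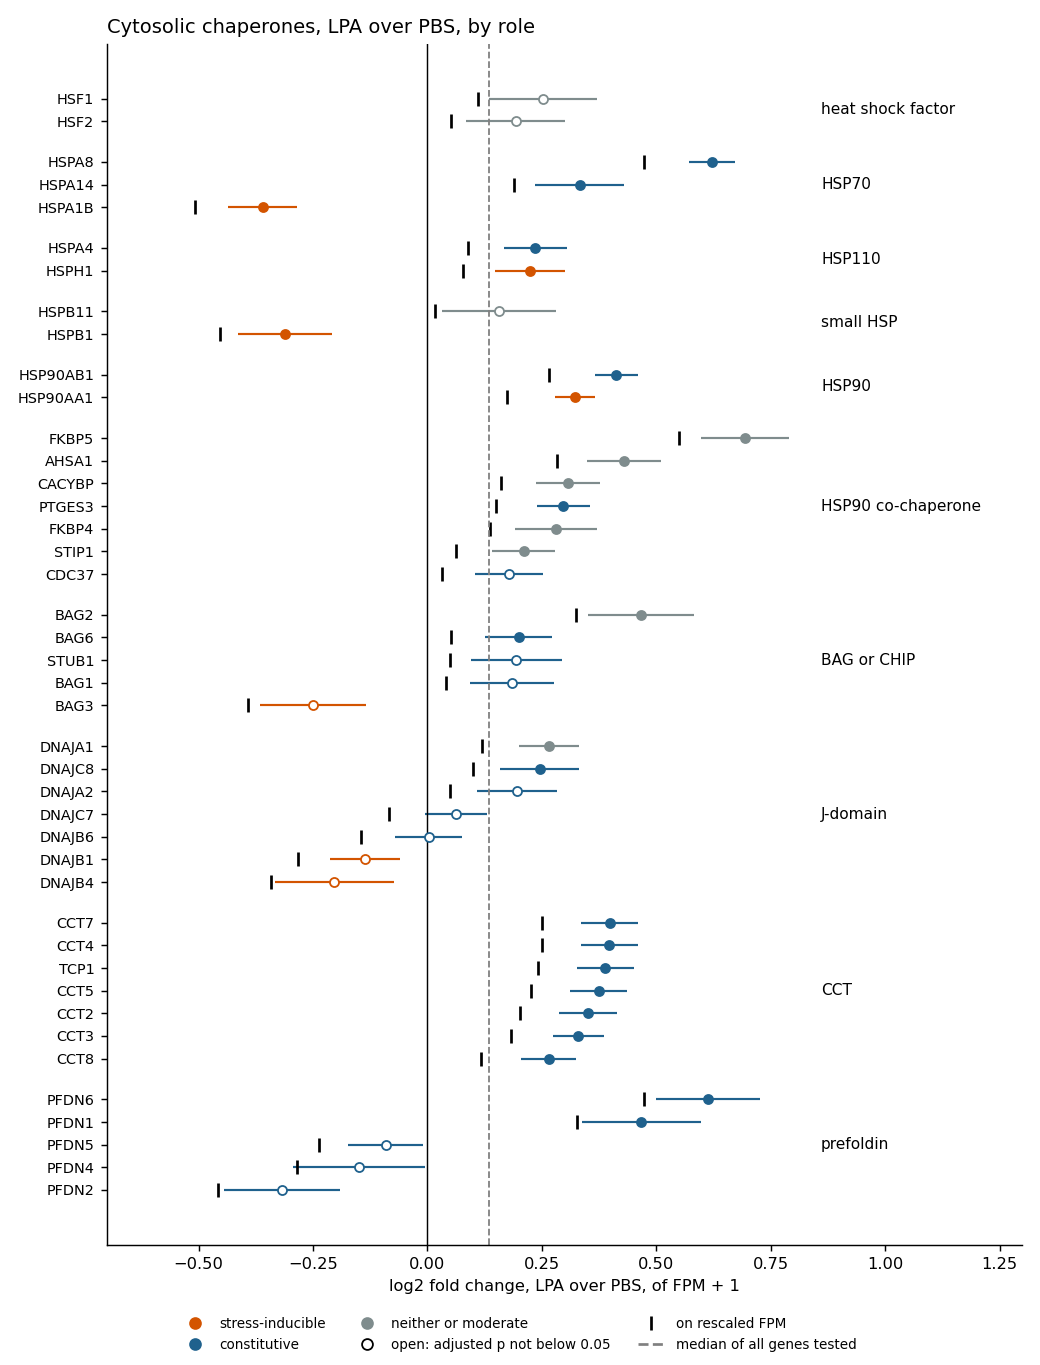
Log2 fold change of LPA over PBS for each tested chaperone gene, grouped by role, on deposited FPM with its standard error (n = 3 libraries per group) and on rescaled FPM. HSPA8, HSP90AB1, HSP90AA1 and the CCT subunits lie to the right of 0 on both scales, HSPA1B and HSPB1 to the left on both, and BAG3, DNAJB1 and DNAJB4 lie to the left with a call on rescaled FPM only.

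HSPA8 (ENSG00000109971), the HSP70 that cells use at all times to fold new proteins and to take apart clathrin coats, was the chaperone with the smallest p. It had 567, 555 and 588 FPM in the LPA libraries, against 367, 386 and 358 FPM in the PBS libraries. The lowest LPA library thus lay well above the highest PBS library. The means were 570 ± 16.7 FPM with LPA and 370 ± 14.6 FPM with PBS (SD, n = 3 each), 1.54-fold higher with LPA (log2 fold change 0.62, SE 0.05, limma adjusted p = 3.01e-14). On rescaled FPM the log2 fold change was 0.47 (limma adjusted p = 7.99e-12), and edgeR and DESeq2 on the recovered reads called it higher as well.

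HSPA1B (ENSG00000204388), the HSP70 that HSF1 switches on under stress, went the other way. It had 76.1, 81.8 and 88.0 FPM in the LPA libraries, against 114, 103 and 99.1 FPM in the PBS libraries. No LPA library reached the lowest PBS library. The means were 82.0 ± 5.99 FPM with LPA and 106 ± 8.0 FPM with PBS, with log2 fold changes of -0.36 on deposited FPM (SE 0.07, limma adjusted p = 0.00019) and -0.51 on rescaled FPM (limma adjusted p = 3.8e-07). The call held without any 1 library. HSPA1A, its neighbour and near-copy, was listed at 0, 0.399 and 0 FPM with LPA and at 0, 1.63 and 1.10 FPM with PBS, at most 3 reads in an LPA library and 9 in a PBS library, and was not tested. Of the 100-base windows of the HSPA1B transcript, 68.8% also occur in HSPA1A, and how the authors counted reads that match both is not given, so the split between the copies is uncertain. The sum of both genes was lower with LPA by the same test (log2 fold change -0.37, limma adjusted p = 0.000117).

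Within a library, HSPA8 reads outnumbered HSPA1B reads 7.46, 6.79 and 6.68 times with LPA, against 3.21, 3.75 and 3.61 times with PBS. This ratio does not depend on the scaling of the library, and its groups were far apart. Per kilobase of the principal transcript, HSPA8 stood at 232 FPM with LPA and 150 FPM with PBS, and HSPA1B at 32.5 FPM with LPA and 41.9 FPM with PBS. As counted, the constitutive gene was thus above the inducible one in both groups. Reads that match both HSPA1A and HSPA1B may be missing from the count of HSPA1B. The size of this gap, and of the ratios of HSPA8 to HSPA1B, is therefore uncertain. HSPA14, an HSP70 that works at the ribosome on new chains, averaged 36.0 ± 2.23 FPM with LPA and 28.4 ± 1.34 FPM with PBS. It rose on deposited FPM (log2 fold change 0.33, limma adjusted p = 0.00754) but had 0.19 on rescaled FPM (limma adjusted p = 0.126). Its exons overlap CDNF and the second row of the same symbol, now named MSANTD7, and the strand setting of the counting is not known. The HSP110 proteins HSPA4 and HSPH1, which exchange the nucleotide of HSP70, rose on deposited FPM only. HSPA4 averaged 151 ± 4.28 FPM with LPA and 129 ± 12.7 FPM with PBS (log2 fold change 0.24, limma adjusted p = 0.00703), and HSPH1, the heat-inducible one, 84.3 ± 1.34 and 72.1 ± 5.42 FPM (log2 fold change 0.22, limma adjusted p = 0.0221). On rescaled FPM the log2 fold changes were 0.09 and 0.08, and neither passed. The HSPA4 call was lost without LPA 1 (log2 fold change 0.21) or PBS 1 (0.17), and the HSPH1 call without LPA 1 (0.23), LPA 2 (0.21), PBS 1 (0.17) or PBS 3 (0.23).

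The heat shock element can be read in the promoters of several of these genes, and 6 are shown because they set genes that rose beside genes that were lower. Sequences are from RefSeq, build GRCh38.p14, the 250 bases before the annotated start, written in the direction of the gene. Capitals mark the letters GAANNTTCNNGAA or the reverse complement TTCNNGAANNTTC, 3 units in a row, where the promoter holds them, and otherwise the 2-unit letters GAANNTTC or TTCNNGAA, which are also part of the longer motif. The first 3 promoters belong to genes that rose with LPA and hold 3 units in a row.
HSPA8 (chr11:123062137-123062386, minus strand): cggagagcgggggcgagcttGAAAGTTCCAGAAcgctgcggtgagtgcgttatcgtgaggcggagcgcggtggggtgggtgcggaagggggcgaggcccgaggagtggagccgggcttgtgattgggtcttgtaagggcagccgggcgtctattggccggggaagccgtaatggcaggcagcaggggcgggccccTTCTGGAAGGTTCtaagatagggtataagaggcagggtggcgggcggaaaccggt
HSP90AA1 (chr14:102087045-102087294, minus strand): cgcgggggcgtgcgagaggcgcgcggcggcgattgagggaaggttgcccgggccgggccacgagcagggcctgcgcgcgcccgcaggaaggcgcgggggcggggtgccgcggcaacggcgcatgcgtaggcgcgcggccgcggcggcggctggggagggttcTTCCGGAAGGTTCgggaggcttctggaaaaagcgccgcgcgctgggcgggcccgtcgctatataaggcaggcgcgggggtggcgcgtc
HSP90AB1 (chr6:44247693-44247942, plus strand): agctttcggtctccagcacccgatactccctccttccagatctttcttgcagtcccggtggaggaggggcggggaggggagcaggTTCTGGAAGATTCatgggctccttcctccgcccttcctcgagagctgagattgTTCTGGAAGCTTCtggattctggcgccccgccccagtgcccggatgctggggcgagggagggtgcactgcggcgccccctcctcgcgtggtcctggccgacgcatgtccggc
The next 3 belong to HSPA1B and HSPB1, which fell, and to DNAJB1, which fell on rescaled FPM only. They hold the 2-unit letters, DNAJB1 at 2 places, and not the 3-unit letters. Units that differ in a letter were not counted.
HSPA1B (chr6:31827488-31827737, plus strand): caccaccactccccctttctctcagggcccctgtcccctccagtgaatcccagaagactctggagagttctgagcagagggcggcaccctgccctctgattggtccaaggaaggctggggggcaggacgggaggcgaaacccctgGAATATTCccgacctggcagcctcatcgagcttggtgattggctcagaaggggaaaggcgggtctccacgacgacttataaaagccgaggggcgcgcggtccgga
HSPB1 (chr7:76302423-76302672, plus strand): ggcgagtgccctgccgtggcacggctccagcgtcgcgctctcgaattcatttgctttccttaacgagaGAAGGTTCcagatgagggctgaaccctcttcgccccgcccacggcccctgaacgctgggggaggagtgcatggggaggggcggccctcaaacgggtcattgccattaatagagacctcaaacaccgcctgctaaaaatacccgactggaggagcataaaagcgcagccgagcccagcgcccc
DNAJB1 (chr19:14518398-14518647, minus strand): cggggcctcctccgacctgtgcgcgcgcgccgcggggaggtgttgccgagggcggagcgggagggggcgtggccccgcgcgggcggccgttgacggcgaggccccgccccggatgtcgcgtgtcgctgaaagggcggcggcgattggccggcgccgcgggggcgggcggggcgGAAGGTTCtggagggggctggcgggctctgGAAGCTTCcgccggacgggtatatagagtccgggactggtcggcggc
In HSPA8 the capitals begin 230 and 55 bases before the start, in HSP90AA1 88 bases, and in HSP90AB1 165 and 112 bases. In HSPA1B they begin 105 bases before the start, in HSPB1 182 bases, and in DNAJB1 77 and 47 bases. HSP90AA1, HSP90AB1 and DNAJB1 have several annotated starts, of which the one with the most matches is shown, and the data do not show which start the cells use. Of the 43 genes, 38 had a promoter window, which for this count runs from 250 bases before to 50 bases after the start. A gene can have several windows, and these 38 had 55. The 3-unit letters stood in 5 of the 55 windows, those of HSPA8, HSP90AA1, HSP90AB1, DNAJA1 and DNAJB6, and in 0.490% of all 35116 windows. The 2-unit letters stood in 18 of the 55 windows, which belong to 16 genes, and in 13.5% of all windows. Of the 5 genes with 3 units, HSPA8, both HSP90 genes and DNAJA1 rose on deposited FPM, DNAJA1 not on rescaled FPM, and DNAJB6 had a log2 fold change of 0.00 there and of -0.14 on rescaled FPM, without passing on either. The 11 genes with 2-unit letters alone went both ways on deposited FPM: 6 rose (BAG2, CCT2, CCT4, PFDN6, STIP1 and TCP1), HSPA1B and HSPB1 fell, DNAJB1 and DNAJB4 did not pass, and HSPA1A was not tested. On rescaled FPM 5 of these 11 rose and 4 fell. These counts are to be read beside those of all 42 tested chaperones. Of these, 25 rose and 2 fell on deposited FPM, and 15 and 7 on rescaled FPM. Of all genes, 22.5% and 4.49% were called on deposited FPM, and 9.67% and 9.45% on rescaled FPM. Whether the letters go with the calls was not tested. A match describes letters in a window and not a bound site.

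The HSP90 genes, which encode the chaperone of kinases and steroid receptors, were both higher with LPA. HSP90AB1 (ENSG00000096384), the constitutive form, had 1017, 990.1 and 1079.7 FPM in the LPA libraries, against 740, 819 and 760 FPM in the PBS libraries. HSP90AA1 (ENSG00000080824), the form that heat shock raises further, had 1010.4, 1009 and 966 FPM with LPA, against 782, 807 and 799 FPM with PBS. In neither gene did the groups overlap. The mean of HSP90AB1 was 1029 ± 46.0 FPM with LPA and 773 ± 41.5 FPM with PBS, 1.33-fold higher (log2 fold change 0.41, SE 0.05, limma adjusted p = 7.35e-10). That of HSP90AA1 was 995 ± 25.2 FPM with LPA and 796 ± 12.7 FPM with PBS, 1.25-fold higher (log2 fold change 0.32, SE 0.04, limma adjusted p = 1.02e-07). Both also rose on rescaled FPM, with log2 fold changes of 0.26 and 0.17. HSP90AA1 was thus one of the 2 stress-inducible genes that rose, and its ratio to HSP90AB1 within a library overlapped between the groups, with 0.993, 1.02 and 0.895 with LPA and 1.06, 0.985 and 1.05 with PBS. Per kilobase of transcript, HSP90AB1 had the highest level of the tested chaperones, at 385 FPM with LPA and 289 FPM with PBS.

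Of the 7 HSP90 co-chaperones, 6 rose on deposited FPM and 4 on rescaled FPM, where 22.5% and 9.67% of all genes were called higher. FKBP5 (ENSG00000096060), an HSP90-bound immunophilin of steroid receptor complexes and a known glucocorticoid target, had 39.6, 43.4 and 44.9 FPM with LPA, against 26.7, 26.4 and 24.7 FPM with PBS. Its groups did not overlap, and its fold was the largest of the tested chaperones, 1.64-fold higher (42.6 ± 2.75 FPM with LPA, 25.9 ± 1.07 FPM with PBS, log2 fold change 0.69, SE 0.10, limma adjusted p = 1.43e-07). AHSA1, which speeds up the ATPase of HSP90, had 74.9, 65.7 and 68.4 FPM with LPA, against 49.1, 52.1 and 53.1 FPM with PBS (log2 fold change 0.43, limma adjusted p = 5.42e-05). PTGES3, the p23 protein that holds HSP90 closed around its client, had 286, 266 and 281 FPM with LPA, against 216, 239 and 224 FPM with PBS (log2 fold change 0.30, limma adjusted p = 8.44e-05). Both genes thus rose, with no overlap between the groups. CACYBP, which binds calcyclin and the ubiquitin ligase SIAH1, averaged 110 ± 1.94 FPM with LPA and 89.0 ± 2.70 FPM with PBS (log2 fold change 0.31, limma adjusted p = 0.000648). These 4 rose on rescaled FPM too, with log2 fold changes of 0.55 for FKBP5, 0.28 for AHSA1, 0.15 for PTGES3 and 0.16 for CACYBP. DESeq2 called neither PTGES3 (adjusted p = 0.0746) nor CACYBP (adjusted p = 0.205), and CACYBP also missed the threshold with scaling to nuclear protein-coding reads (limma adjusted p = 0.0628). STIP1, which links HSP70 to HSP90, averaged 117 ± 3.63 FPM with LPA and 101 ± 3.42 FPM with PBS (log2 fold change 0.21, limma adjusted p = 0.0176). FKBP4, a further HSP90-bound immunophilin of steroid receptor complexes, averaged 48.0 ± 1.70 FPM with LPA and 39.4 ± 2.57 FPM with PBS (log2 fold change 0.28, limma adjusted p = 0.0139). STIP1 and FKBP4 did not pass on rescaled FPM, with log2 fold changes of 0.06 and 0.14. Their calls on deposited FPM were also lost without single libraries, that of STIP1 without LPA 1 (log2 fold change 0.22), LPA 2 (0.18) or PBS 3 (0.18) and that of FKBP4 without LPA 2 (0.25) or PBS 3 (0.24). CDC37, which brings kinases to HSP90, averaged 99.8 ± 5.40 FPM with LPA and 88.3 ± 7.99 FPM with PBS, its groups overlapped, and it did not pass (log2 fold change 0.18, limma adjusted p = 0.069; without PBS 2 it passed at 0.23).

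HSPB1 (ENSG00000106211), the heat-inducible small HSP that holds unfolded proteins until HSP70 takes them, had 24.3, 24.7 and 23.8 FPM with LPA, against 31.3, 27.1 and 32.7 FPM with PBS. The LPA libraries were close together and all below the lowest PBS library. The log2 fold change was -0.31 (SE 0.10, limma adjusted p = 0.0195) and -0.45 on rescaled FPM (limma adjusted p = 0.00094). The call on deposited FPM was a narrow one. It was lost without LPA 1 (log2 fold change -0.31, limma adjusted p = 0.0599), LPA 3 (-0.30, adjusted p = 0.0594), PBS 1 (-0.29, adjusted p = 0.0725) or PBS 3 (-0.26, adjusted p = 0.116), and with the close libraries averaged (limma adjusted p = 0.114). HSPB11, which carries the name of a small HSP but is a subunit of the transport machinery of cilia, averaged 16.8 ± 1.14 FPM with LPA and 15.0 ± 1.15 FPM with PBS and did not pass (log2 fold change 0.16, limma adjusted p = 0.387).

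**Figure D2:**
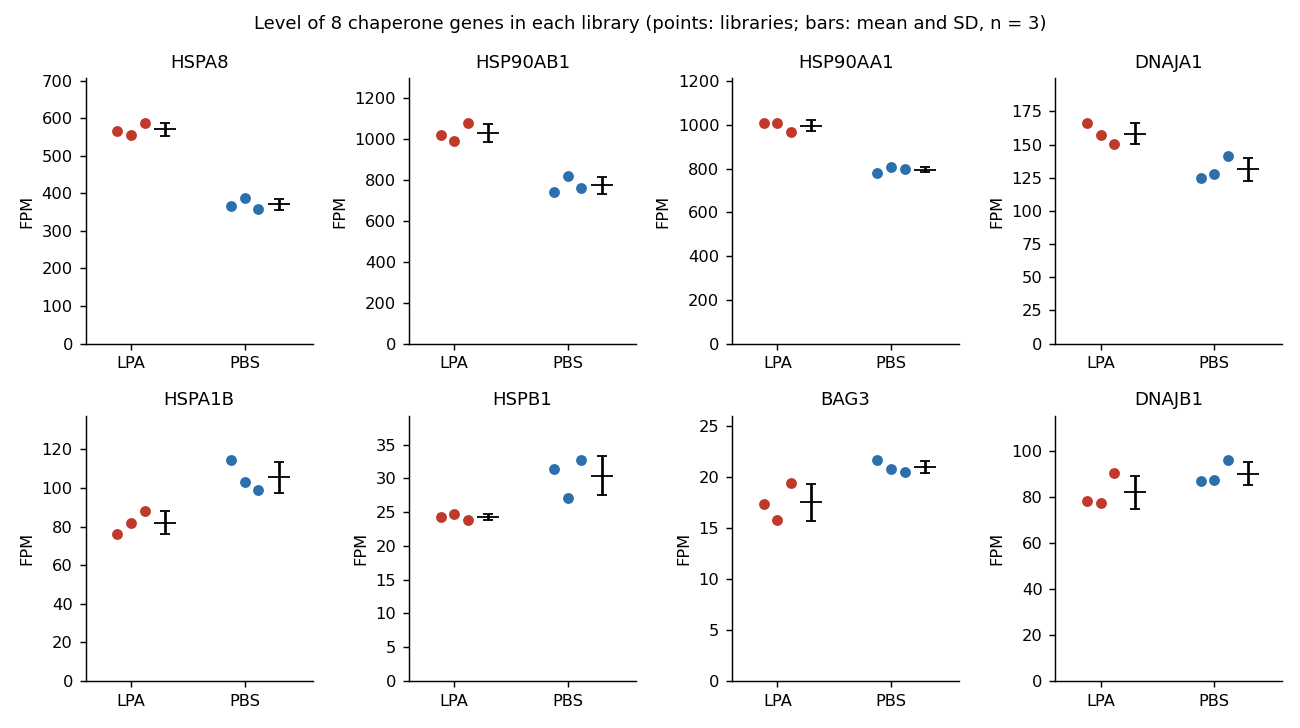
FPM of 8 chaperone genes in each library, with the mean and SD of the 3 LPA libraries and of the 3 PBS libraries; every axis starts at 0. In the upper row, HSPA8, HSP90AB1, HSP90AA1 and DNAJA1, every LPA library lies above every PBS library, and in the lower row HSPA1B, HSPB1 and BAG3 lie below while DNAJB1 overlaps.

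The BAG proteins release clients from HSP70, and BAG2 and BAG3 stood on opposite sides. BAG2, an inhibitor of the ubiquitin ligase CHIP, had 23.5, 21.5 and 26.2 FPM with LPA, against 15.1, 17.9 and 17.7 FPM with PBS, and rose on both scales (log2 fold change 0.47, limma adjusted p = 0.00174, and 0.33 on rescaled FPM). BAG3, a heat-inducible factor that directs clients to autophagy, had 17.4, 15.8 and 19.5 FPM with LPA, against 21.7, 20.8 and 20.5 FPM with PBS. Its groups did not overlap, yet it missed the threshold on deposited FPM (log2 fold change -0.25, limma adjusted p = 0.107) and fell on rescaled FPM (log2 fold change -0.39, limma adjusted p = 0.00779). DESeq2 called neither BAG2 (adjusted p = 0.155) nor BAG3 (adjusted p = 0.0665). BAG6, which guards membrane proteins on their way to the ER, averaged 141 ± 18.1 FPM with LPA and 122 ± 6.65 FPM with PBS, with overlap. Its call on deposited FPM (log2 fold change 0.20, limma adjusted p = 0.0365) was lost without LPA 3 (0.10), PBS 1 (0.19) or PBS 3 (0.17) and on rescaled FPM (0.05). BAG1 and STUB1, the CHIP ligase that marks clients of HSP70 for the proteasome, did not pass on either scale, with log2 fold changes of 0.18 and 0.19 on deposited FPM.

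Of the 7 J-domain genes, 2 rose on deposited FPM by limma, while on rescaled FPM 0 rose and 2 fell (0 were higher by edgeR or DESeq2 and 0 at an unadjusted p below 0.05 by limma). Among all genes tested, 22.5% were called higher and 4.49% lower on deposited FPM, and 9.67% and 9.45% on rescaled FPM. The 2 of 7 that rose are thus not far from the share of all genes. DNAJA1, a partner of HSPA8, had 167, 157 and 151 FPM with LPA, against 125, 128 and 141 FPM with PBS (log2 fold change 0.27, limma adjusted p = 0.00174), and 0.12 on rescaled FPM (limma adjusted p = 0.214). DNAJB1, the heat-inducible HSP40, had 78.6, 77.5 and 90.5 FPM with LPA, against 87.2, 87.5 and 96.2 FPM with PBS. The third LPA library lay within the PBS range. Its log2 fold change was -0.14 (limma adjusted p = 0.185), and on rescaled FPM it fell, with -0.28 (limma adjusted p = 0.00108). DNAJB4, a further heat-inducible J-domain protein, averaged 13.4 ± 0.594 FPM with LPA and 15.6 ± 1.66 FPM with PBS (log2 fold change -0.20, limma adjusted p = 0.258), and fell on rescaled FPM only (-0.34, limma adjusted p = 0.0425; DESeq2 adjusted p = 0.201). DNAJC8, which is found with splicing factors, averaged 60.0 ± 4.79 FPM with LPA and 50.5 ± 3.96 FPM with PBS (log2 fold change 0.25, limma adjusted p = 0.0267). That call was lost without LPA 2 (0.21), LPA 3 (0.21) or PBS 3 (0.18) and on rescaled FPM (0.10). DNAJA2, a further partner of HSPA8 in refolding, had a log2 fold change of 0.20 (limma adjusted p = 0.0891; without PBS 2 it passed at 0.29). DNAJB6, which keeps aggregation-prone proteins soluble, averaged 97.3 ± 4.80 FPM with LPA and 97.2 ± 7.24 FPM with PBS. DNAJC7, which binds both HSP70 and HSP90, averaged 110 ± 1.11 FPM with LPA and 106 ± 0.998 FPM with PBS (log2 fold change 0.06). Neither DNAJB6 nor DNAJC7 passed, and the sign of both turned on rescaled FPM, to -0.14 and -0.08.

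The CCT ring is built of paralogous subunits that each take a fixed place, and the 7 genes of it in the set, TCP1 and CCT2, CCT3, CCT4, CCT5, CCT7 and CCT8, all rose with LPA. Their log2 fold changes lay between 0.27 and 0.40, a narrow range, with a median of 0.37. TCP1 had 225, 208 and 237 FPM with LPA, against 164, 175 and 171 FPM with PBS (log2 fold change 0.39, limma adjusted p = 2.32e-06). CCT7 had 184, 184 and 191 FPM with LPA, against 137, 146 and 140 FPM with PBS (log2 fold change 0.40, limma adjusted p = 1.94e-06). CCT5 had 179, 172 and 179 FPM with LPA, against 137, 135 and 136 FPM with PBS (log2 fold change 0.37, limma adjusted p = 7.01e-06). In each of the 7 genes all LPA libraries lay above all PBS libraries, and no call was lost when a library was left out or the close libraries were averaged. On rescaled FPM 6 of 7 rose, with a median of 0.23, and CCT8 did not pass (log2 fold change 0.12, limma adjusted p = 0.155). The shares of all genes called higher were 22.5% on deposited FPM and 9.67% on rescaled FPM. CCT8 averaged 232 ± 2.14 FPM with LPA and 194 ± 13.2 FPM with PBS. CCT6A, a subunit outside the set of 43, averaged 185 ± 8.03 FPM with LPA and 142 ± 0.962 FPM with PBS and also rose (log2 fold change 0.38, limma adjusted p = 4.09e-06, and 0.24 on rescaled FPM). CCT6B, a further CCT subunit outside the set, was tested and did not pass on either scale. Summed over the 7 genes, the level was 1527, 1468 and 1530 FPM with LPA, against 1158, 1194 and 1187 FPM with PBS. Exons of TCP1 and CCT4 overlap those of ACAT2 and COMMD1, and the small RNAs within TCP1 were low: SNORA20 reached at most 3.28 FPM in any library.

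Prefoldin, which hands actin and tubulin chains to CCT, was mixed where the CCT genes of the set all rose on deposited FPM. PFDN6 had 27.3, 24.2 and 25.5 FPM with LPA, against 17.8, 16.6 and 14.9 FPM with PBS, 1.56-fold higher (log2 fold change 0.61, SE 0.11, limma adjusted p = 3.71e-05, and 0.47 on rescaled FPM). PFDN2 had 14.1, 15.3 and 13 FPM with LPA, against 16.2, 17.9 and 19.5 FPM with PBS. These 2 subunits of the same complex thus lay on opposite sides, each without overlap between the groups. The log2 fold change of PFDN2 was -0.32 and just missed the threshold on deposited FPM (limma adjusted p = 0.0531; without PBS 1 it passed at -0.38), and it fell on rescaled FPM (-0.46, limma adjusted p = 0.00592). PFDN1 averaged 19.8 ± 3.15 FPM with LPA and 14.0 ± 1.98 FPM with PBS (log2 fold change 0.47, limma adjusted p = 0.00486), a call lost without LPA 2 (0.35) or PBS 3 (0.36) and on rescaled FPM (0.33, limma adjusted p = 0.0786). PFDN5 averaged 52.6 ± 1.59 FPM with LPA and 56.1 ± 1.73 FPM with PBS (log2 fold change -0.09, limma adjusted p = 0.452) and fell on rescaled FPM only (-0.24, limma adjusted p = 0.0193; DESeq2 adjusted p = 0.118). PFDN4 did not pass on either scale (log2 fold change -0.15, limma adjusted p = 0.486). VBP1, the remaining subunit and not one of the 43, averaged 74.1 ± 2.09 FPM with LPA and 64.2 ± 6.13 FPM with PBS (log2 fold change 0.21, limma adjusted p = 0.0473). VBP1 did not pass on rescaled FPM (0.06), nor without LPA 1 (0.20), LPA 2 (0.23), LPA 3 (0.19), PBS 1 (0.13) or PBS 3 (0.22). Exons of PFDN6 overlap WDR46 and RGL2 and those of PFDN2 overlap NIT1, so reads of these neighbours may be among theirs.

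**Figure D3:**
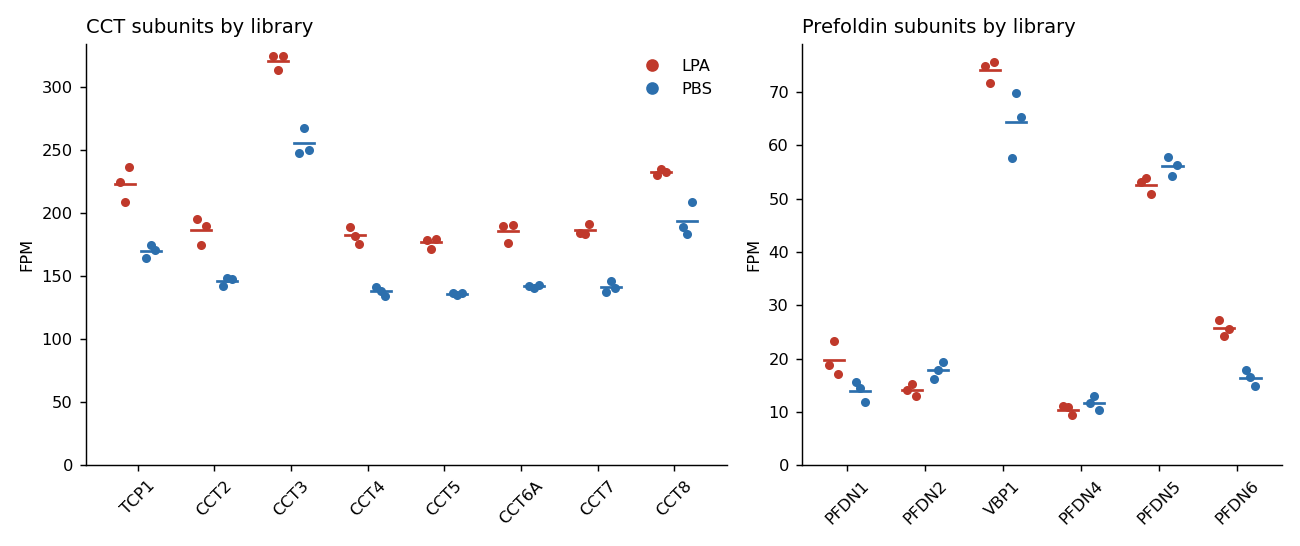
FPM of the subunits of the CCT ring (left) and of prefoldin (right) in each library, with a line at each group's mean (n = 3 libraries per group). CCT6A and VBP1 are added from outside the 43 genes, and CCT6B is not shown. In the 7 CCT genes every LPA library lies above every PBS library, while in prefoldin PFDN6 lies above and PFDN2 below.

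Grouped by how they are switched on, the constitutive chaperones were mostly higher with LPA on deposited FPM and the stress-inducible ones mixed. The counts of these classes are to be read beside the shares of all genes tested. Those were 22.5% higher and 4.49% lower on deposited FPM, and 9.67% and 9.45% on rescaled FPM. The 25 constitutive genes had 16 that rose, 0 that fell (1 at an unadjusted p below 0.05 by limma, 2 by edgeR and 1 by DESeq2) and 9 that missed the threshold, and a median log2 fold change of 0.27. The 8 stress-inducible genes, HSPA1A, HSPA1B, HSPH1, HSPB1, HSP90AA1, BAG3, DNAJB1 and DNAJB4, had 7 tested, of which 2 rose, 2 fell and 3 missed the threshold, for a median of -0.20. On rescaled FPM the constitutive genes had 10 that rose and 2 that fell, with a median of 0.12, and the inducible ones 1 that rose and 5 that fell, with a median of -0.34. Without the 7 CCT genes, the other 18 constitutive genes had 9 that rose and a median of 0.20 on deposited FPM, and 4 that rose, 2 that fell and a median of 0.05 on rescaled FPM. The classes were set by hand and the difference rests on where the line is drawn. The 5 genes that stress raises moderately, AHSA1, STIP1, CACYBP, FKBP4 and DNAJA1, all rose on deposited FPM, and counting them as inducible gives 7 that rose and 2 that fell of 12, with a median of 0.22, while on rescaled FPM 3 of these rose and 5 fell, with a median of 0.07. Summed FPM of the 8 inducible genes was higher with LPA, at 1299 ± 13.2 FPM against 1132 ± 12.4 FPM with PBS, and HSP90AA1 made up most of that sum. No test of the difference between the classes was made, since the genes were grouped with earlier results of these data known.

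Ratios of a stress-inducible gene to another gene of its family, taken within each library, do not depend on scaling. HSPA8 and HSPA4 are constitutive, DNAJA1 is moderately inducible and BAG2 is in no class. The ratios are set out as a description, as the pairs were picked with the fold changes known. HSPA1B over HSPA8 was 0.134, 0.147 and 0.150 with LPA, against 0.312, 0.266 and 0.277 with PBS. BAG3 over BAG2 was 0.739, 0.738 and 0.744 with LPA, against 1.43, 1.16 and 1.16 with PBS. DNAJB1 over DNAJA1 was 0.472, 0.494 and 0.600 with LPA, against 0.698, 0.684 and 0.682 with PBS. In these 3 pairs every LPA library was below every PBS library. HSPH1 over HSPA4, in contrast, averaged 0.557 ± 0.0157 with LPA and 0.562 ± 0.0469 with PBS, and its groups overlapped. Within prefoldin, PFDN2 over PFDN6 averaged 0.553 ± 0.0704 with LPA and 1.10 ± 0.199 with PBS.

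**Figure D4:**
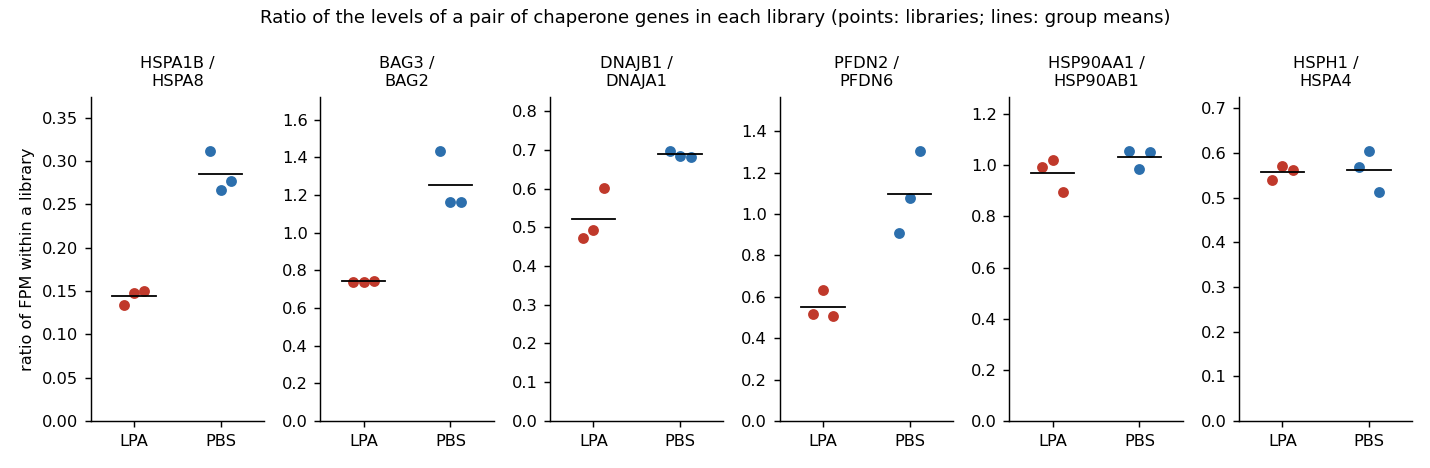
Ratio of the FPM of a pair of chaperone genes in each library, with a line at each group's mean; every axis starts at 0. HSPA1B over HSPA8, BAG3 over BAG2, DNAJB1 over DNAJA1 and PFDN2 over PFDN6 are lower in every LPA library than in every PBS library, while HSP90AA1 over HSP90AB1 and HSPH1 over HSPA4 overlap.

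The heat shock factors did not pass by limma, edgeR or DESeq2 (1 of 2 at an unadjusted p below 0.05 by limma on deposited FPM). HSF1 had 18.2, 21.2 and 23.1 FPM with LPA, against 16.6, 17.4 and 17.8 FPM with PBS (log2 fold change 0.25, limma adjusted p = 0.109). HSF2 had 24.1, 24.2 and 27.7 FPM with LPA, against 20.3, 23.2 and 22.6 FPM with PBS (log2 fold change 0.19, limma adjusted p = 0.191). Both lay above their PBS libraries on deposited FPM and overlapped on rescaled FPM, where the log2 fold changes were 0.11 and 0.05. These are levels of RNA, and HSF1 is known to be controlled mainly on the protein. Among 12 tested genes outside the set that heat shock or HSF1 is known to raise, 3 rose and 3 fell on deposited FPM. Their median log2 fold change was 0.06. On rescaled FPM 3 rose and 5 fell, with a median of -0.07. Over all genes tested, 22.5% were called higher and 4.49% lower on deposited FPM, and 9.67% and 9.45% on rescaled FPM. PPP1R15A, which restores translation after stress, averaged 50.2 ± 1.24 FPM with LPA and 82.7 ± 1.95 FPM with PBS (log2 fold change -0.71, limma adjusted p = 4.94e-10), and MRPS6, a mitochondrial ribosomal protein, 46.8 ± 2.96 and 76.5 ± 0.981 FPM (log2 fold change -0.70, limma adjusted p = 1.71e-09). HSPE1, the lid of the mitochondrial chaperonin, rose (log2 fold change 0.57, limma adjusted p = 3.71e-06). HSPA6, an HSP70 that is nearly silent without stress, was too low to be tested, with 0.691, 0.405 and 0.577 FPM with LPA and 1.42, 1.09 and 0.733 FPM with PBS.

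Of 64 other genes of the cytosolic network, 57 were tested. On deposited FPM 17 rose and 2 fell, where 22.5% of all genes were called higher and 4.49% lower. The median log2 fold change was 0.15, beside 0.13 for all genes. On rescaled FPM 6 rose and 3 fell, where 9.67% and 9.45% of all genes were called. The counts of the smaller lists below are to be read beside the same shares. Of the 9 other HSP70 and HSP110 genes, 8 were tested and 3 rose (2 on rescaled FPM, where ST13 did not pass): HSPA4L, an HSP110 (log2 fold change 0.41, limma adjusted p = 8.61e-05), HSPBP1, a nucleotide exchange factor (0.51, adjusted p = 0.00161), and ST13, the HIP protein (0.22, adjusted p = 0.0066). HSPA2, an HSP70 best known from the testis, fell, with 5.51 ± 0.322 FPM with LPA and 8.95 ± 0.400 FPM with PBS (log2 fold change -0.61, limma adjusted p = 0.00403). The 18 other J-domain genes had 3 that rose and 1 that fell, against 1 and 1 on rescaled FPM. DNAJB2, the one that fell (log2 fold change -0.34, limma adjusted p = 0.0196), lost its call without LPA 1 (-0.31), LPA 2 (-0.30) or PBS 1 (-0.31). The 14 other HSP90 co-chaperones had 5 that rose, against 1 that rose and 1 that fell on rescaled FPM, with SUGT1, which links HSP90 to ubiquitin ligases and the kinetochore, at the smallest p (log2 fold change 0.37, limma adjusted p = 0.00168). Of the 7 other BAG and quality control genes 3 rose: BAG4 (log2 fold change 0.44), SGTA (0.31) and HSBP1 (0.32), of which BAG4 alone passed on rescaled FPM. Of the 9 other CCT and prefoldin genes 3 rose, CCT6A, VBP1 and the cofactor PDCL3 (log2 fold change 0.41, limma adjusted p = 0.0424). PDCL3 lost its call without LPA 1 (0.37), LPA 2 (0.45), LPA 3 (0.40), PBS 1 (0.32) or PBS 2 (0.38). On rescaled FPM, CCT6A alone of these 9 genes passed. Of the 7 other small HSP genes, 1 was high enough to be tested, HSPB6, which did not pass (log2 fold change -0.37, limma adjusted p = 0.332).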

How the data were processed

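The authors deposited FPM (CPM, counts scaled to each lane's total) in a single table of 24 lanes. Aligner, counting tool, strandedness and the treatment of reads with several matches are not stated in the sources used here. Although the identifiers are human, the build in the submitters' processing notes is mm10, so no coordinates were taken from the table. The values are whole multiples of 1 read (100% within a tolerance of 0.02 reads), which gave the recovered reads and library totals; 86.5% to 91.6% of these totals are in listed genes. A blank row was left out, and 187 rows that repeated an identifier were dropped.

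The 4 lanes of a library were averaged (n = 3 per group). The 16274 genes that reached 1 FPM in 3 or more libraries went into a two-sided limma-trend fit (limma 3.58.1, R 4.3.3) of log2(FPM + 1) with robust empirical Bayes and no covariate. The threshold was 0.05 after Benjamini-Hochberg adjustment over these genes. The pseudocount makes fold changes of low genes too small. edgeR 4.0.16 (quasi-likelihood) and DESeq2 1.42.0 on the recovered reads, other scalings, pseudocounts and filters, the replicate number as a block, and leaving out libraries were alternatives. Averaging the libraries that were close was added after seeing the data. On simulated data the fit recovered 52% of 1.3-fold, 80% of 1.5-fold and 98% of 2-fold changes. The simulation gave every gene the same dispersion, changed as many genes up as down and had no shift of the median gene. Recovery in the real libraries may therefore differ. A gene that did not pass can thus still differ by a small fold. Samples of the same number did not deviate together (correlations across genes -0.01, -0.04 and -0.05), so the main fit has no block. Transcript lengths are those of GENCODE release 29. Exons of 21 of the 43 genes overlap another gene.

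The genes, their classes and all lists were chosen with earlier results of these data known. All 43 are named, and of each other list at most the 4 genes with the smallest p, beside CCT6A, CCT6B and VBP1. Some genes of these lists are not reported here by name.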

Additional observations from a re-analysis of the deposited data

How the results depend on the processing

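Changes of pseudocount (0.25 or 4 FPM), no filter on low values and a filter at 5 FPM left the counts of called genes and chaperones within 1.5 times of the reported ones. Scaling did not. With median-of-ratios scaling 1574 genes were higher and 1538 lower, and 15 and 7 chaperones, with medians of 0.11 (all chaperones), -0.34 (stress-inducible) and 0.12 (constitutive). Scaling to nuclear protein-coding reads gave 1425 and 1628 genes, 14 and 7 chaperones and medians of 0.095, -0.35 and 0.11. TMM gave 1627 and 1507 genes, 15 and 7 chaperones and medians of 0.11, -0.34 and 0.12. edgeR gave 1679 and 1569 genes, 15 and 7 chaperones and medians of 0.11, -0.36 and 0.12. DESeq2 gave 801 and 943 genes, 12 and 4 chaperones and medians of 0.11, -0.36 and 0.12. In these 5 alternatives DNAJB6 turned to -0.14, -0.15, -0.14, -0.14 and -0.15, and DNAJC7 to -0.084, -0.095, -0.080, -0.080 and -0.084. Without PBS 2 and LPA 3 together 4 chaperones were lower and DNAJB6 was at -0.022. With the close libraries averaged 1 chaperone was lower. Adding the moderately inducible genes turned the stress-inducible median to 0.22.

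Leaving out each library in turn gave 2459 to 4493 genes higher and 540 to 711 lower, 19 to 27 chaperones higher and 1 to 2 lower. The medians ran from 0.23 to 0.27 (all chaperones), -0.25 to -0.16 (stress-inducible) and 0.26 to 0.31 (constitutive), and DNAJB6 from -0.057 to 0.047. With the replicate number as a block, 3339 genes were higher and 720 lower, and 24 and 2 chaperones; the numbers do not pair the samples. HSPA1A and HSPA6 were too low in these libraries to be tested. Where no cause is given above, the cause was not tested.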

Other observations

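Chaperones outside the cytosol and the proteins that CCT folds were measured in the same libraries. Of 17 listed chaperones of the endoplasmic reticulum and the mitochondria, 15 rose on deposited FPM and 11 on rescaled FPM. Over all genes tested, 22.5% were called higher and 4.49% lower on deposited FPM, and 9.67% and 9.45% on rescaled FPM. The median log2 fold change of the 17 on deposited FPM was 0.30, beside 0.13 for all genes. HSP90B1, the HSP90 of the endoplasmic reticulum, had a log2 fold change of LPA over PBS of 0.53 ± 0.05 (SE), with an adjusted p of 1.19e-12 by limma. Of 9 actin and tubulin genes, clients of CCT, 4 rose and 1 fell on deposited FPM, and 3 rose and 1 fell on rescaled FPM. TUBB averaged 460 ± 18.5 FPM with LPA and 330 ± 45 FPM with PBS (log2 fold change 0.48, limma adjusted p = 8.64e-05), and TUBA1B 497 ± 16.4 and 387 ± 12.7 FPM (log2 fold change 0.36, limma adjusted p = 2.19e-07). ACTB rose on deposited FPM (log2 fold change 0.19, limma adjusted p = 0.00109) and had 0.04 on rescaled FPM. TUBG1 had a log2 fold change of 0.45 (limma adjusted p = 0.00207), and missed the threshold without PBS 3 (0.29). ACTG1, the gene that fell (log2 fold change -0.14, limma adjusted p = 0.0422, and -0.29 on rescaled FPM), missed the threshold without LPA 1 (-0.12), LPA 2 (-0.13), PBS 1 (-0.13), PBS 2 (-0.12) or PBS 3 (-0.17). TUBB and TUBA1B share stretches with their paralogs, so their split is uncertain.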
